A study of Homo sapiens with 10 samples.

Results

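The loci described here are stretches of nuclear RNA in HEK293 cells that carry no gene name. They lie between annotated genes, 10 to 100 kb from the nearest annotated region that was tested. In a table of 241080 rows, 1836 rows were chosen by 4 conditions. The row had an identifier of the unnamed kind (CLOC) and a test of its own, its region was longer than 500 bases, no annotated (XLOC) row had the same region, and the nearest region with a tested annotated row on the same chromosome was over 10 kb and at most 100 kb away. The choice used identifiers and positions, and measured level only through the authors' test status, which left out 34611 rows as not tested, 8580 as too low, 4921 as above the data limit and 37 as failed. These rows occupy 1807 regions of hg19.

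Genomes are transcribed far beyond their annotated genes. Such intergenic RNA includes long non-coding RNAs, transcripts of enhancers and RNA made by polymerases that continue past the end of a gene. Much of it is short-lived, being degraded in the nucleus by the RNA exosome, and RNA that is still attached to the polymerase sediments with chromatin, whereas processed messenger RNA is released.

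HEK293 cells come from human embryonic kidney and were grown as an adherent culture. Their nuclei were isolated with detergent and divided into a chromatin pellet extract (CPE, 3 samples) and a soluble nuclear extract (SNE, 3 samples), from 3 biological replicates per the series' design text, and the labels name no drug for either. The study also has chromatin pellets with DRB, an inhibitor of RNA polymerase II elongation (2 samples), and with mock treatment (2 samples), which were not analysed here. The table holds 1 level per row for CPE and 1 for SNE, as FPKM (fragments scaled to transcript length and to library size), which the authors made over the replicates. The spread between replicates and the libraries' depths are therefore unknown, and a difference was called where the authors' q was at most 0.05.

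Known nuclear RNAs and mRNAs served to check the fractions. NEAT1 and KCNQ1OT1, long non-coding RNAs that stay at chromatin or in nuclear bodies, had levels of 44.6 and 0.545 FPKM in CPE against 4.11 and 0.0301 FPKM in SNE, and the mRNAs GAPDH and TUBA1B had 260.7 and 140.2 FPKM in CPE against 1320 and 687.7 FPKM in SNE. In the authors' deposited table all of these differences were at q = 0.000706, the smallest q it holds. Of the other nuclear RNAs fixed for this check, MALAT1 and FTX were higher in CPE, PVT1 missed the threshold (the authors' deposited table gives q = 0.510), XIST and TSIX were above the data limit of the authors' software and JPX had no row of its own. Of the other mRNAs RPLP0 was higher in SNE, EEF1A1 was above the data limit and ACTB had no row of its own. Of 3 embryonic or kidney genes, LIN28B and MYC were higher in SNE, with 9.54 and 13.6 FPKM in CPE against 32.3 and 59.6 FPKM in SNE, and WT1 had 0.890 FPKM in CPE and 2.75 FPKM in SNE without a call.

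Nearly all of the unnamed intergenic loci were more abundant in the chromatin pellet. By the authors' q, 915 of 1836 loci were called for CPE and 4 for SNE, while 917 had no call. Of the 915, 103 were listed at 0 in SNE. Among all tested rows, 8.73% were called higher in CPE and 4.30% higher in SNE. The shares were 9.45% and 0.630% among tested unnamed rows of any kind, and 1.83% and 39.3% among tested annotated rows. Levels were low in both fractions, with a median of 0.621 FPKM in CPE (interquartile range 0.500 to 0.781) and 0.0518 FPKM in SNE (0.0262 to 0.0958). The highest locus had 21.4 FPKM in CPE, 185 of the 1836 loci reached 1 FPKM in CPE, and 22 did so in SNE.

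Over the 1730 loci above 0 in both fractions, the log2 ratio (CPE over SNE) in the authors' deposited table had a median of 3.59, or 12.0-fold (interquartile range 2.73 to 4.35). The same median was 3.05 over all tested rows and -1.24 over tested annotated rows. The ratio was positive at 1715 of these loci and negative at 15. A further 106 loci were listed at 0 in SNE and none was listed at 0 in CPE, where the lowest level was 0.265 FPKM. Loci at 0 in SNE can have met the authors' test status only through CPE, so their direction is not independent of the choice. The same limit reaches further, since the upper quartile in SNE, 0.0958 FPKM, lay below the lowest level in CPE. Most of the other loci can thus have met the test status mainly through CPE. How far this sets the direction and size of their ratios was not tested. The labels do not say how the unnamed loci were defined. Whether the chromatin libraries entered that definition, in which case the direction would not be independent of it, was not tested.

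**Figure D1:**
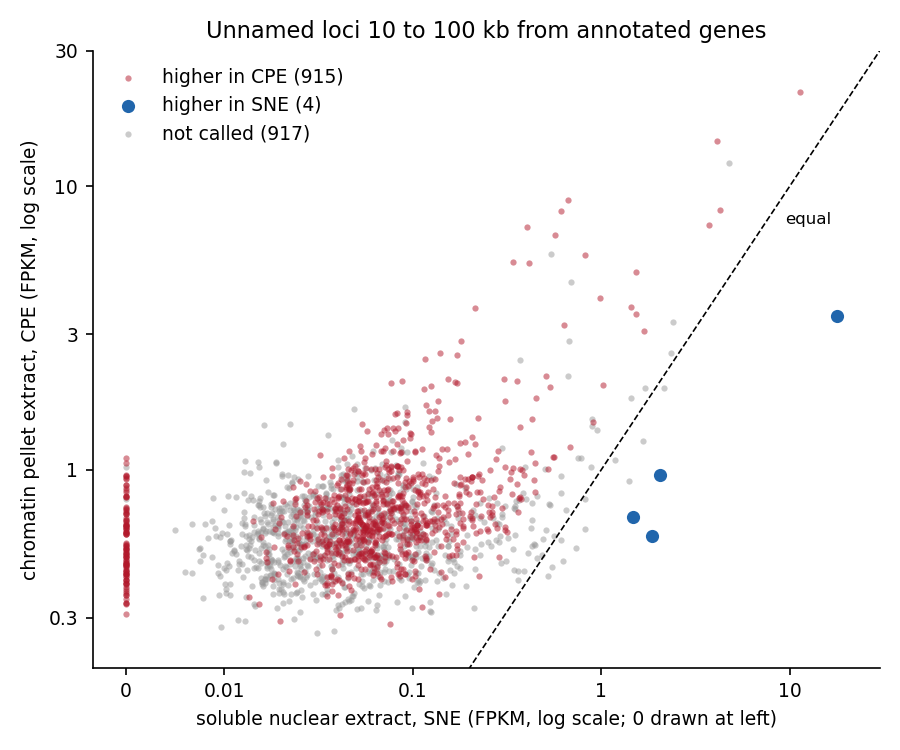
Level of each of the 1836 loci in CPE (vertical) against SNE (horizontal), in FPKM on log axes, with loci listed at 0 in SNE drawn at the left edge. Red points are the 915 loci called higher in CPE, blue points the 4 called higher in SNE and grey points the 917 not called. The dashed line marks equal levels, and the cloud lies above it around 0.621 FPKM in CPE and 0.0518 FPKM in SNE.

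A missing call did not go with a smaller ratio. The 917 loci without a call had a median log2 ratio of 3.93 (15.2-fold), against 3.39 (10.5-fold) at the 915 called higher in CPE, both over loci above 0 in SNE and from the authors' deposited table. Of those not called, 639 had a log2 ratio of at least 3 and 11 had a negative one. They were shorter, with a median region length of 691 bases against 1334 bases at the called loci. Their levels were lower in both fractions, with medians of 0.577 FPKM in CPE and 0.0410 FPKM in SNE. The called loci had 0.666 and 0.0614 FPKM. The larger ratio of the loci without a call thus rests on very low SNE levels, whose precision is unknown. Before the authors' adjustment, 415 of the loci without a call had a p of at most 0.05.

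Calls were more frequent among longer regions, up to 5000 bases, while the ratio moved little. Among loci above 0 in both fractions, 11.9% of those with regions of 501 to 600 bases were called higher in CPE, 38.3% of those of 751 to 1000 bases, 68.2% of those of 1001 to 2000 bases and 94.7% of those of 2001 to 5000 bases. Over 5000 bases the share was 78.6%. The rows over 5000 bases numbered 100 but lay in only 80 regions. Of these rows 16 shared 1 region of 77.7 kb, and 3 of the 16 were called. The fall over 5000 bases is thus not independent of rows that share a region. The median log2 ratio in the first 4 of these classes was 3.39, 3.62, 3.63 and 3.65 in the authors' deposited table. Loci listed at 0 in SNE went the other way. The 106 such loci had a median length of 582 bases, and 103 of them (97.2%) were called. They made up 59 of the 95 calls in the shortest class. Their 103 calls are part of the 915, and 812 calls were at loci above 0 in both fractions. Whether a level of 0 itself changes the q that the authors' software gives was not tested.

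**Figure D2:**
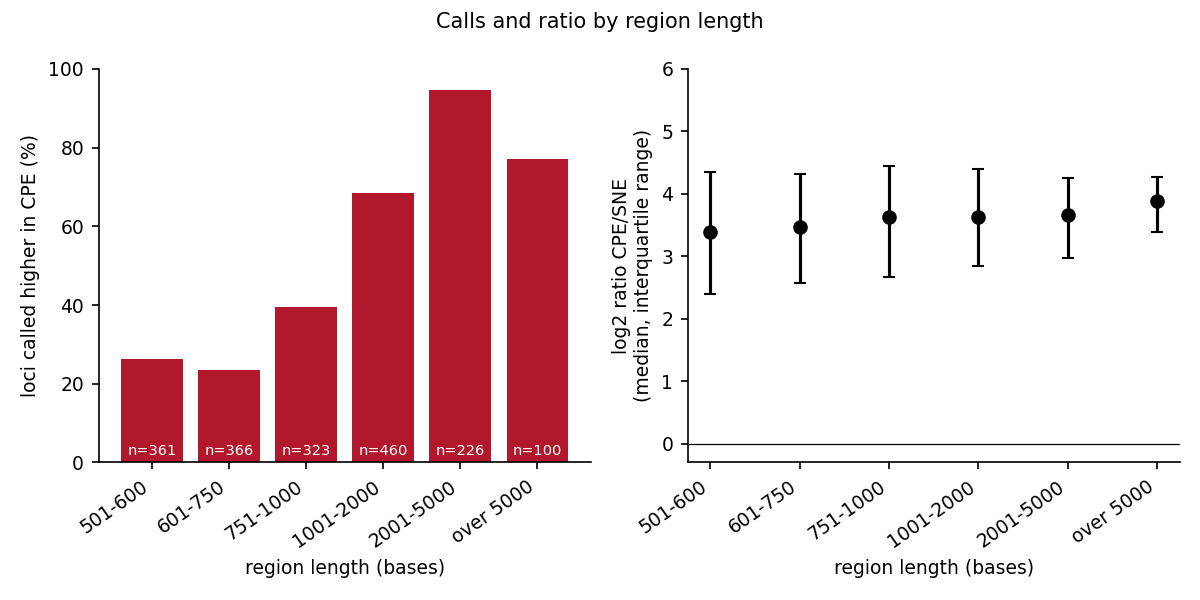
Share of loci called higher in CPE (left, bars, percent of all loci in the class, n on each bar) and log2 ratio of CPE over SNE (right, median and interquartile range over loci above 0 in both fractions) by region length in bases. The share runs between 23.5% and 94.7% while the median ratio stays between 3.39 and 3.88. Loci listed at 0 in SNE are counted in the shares but not in the ratios.

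The loci were compared with unnamed stand-alone loci of the same minimum length that lie nearer to annotated regions or farther from them. Chromatin levels were alike in the 3 classes, with medians of 0.621 FPKM at 10 to 100 kb, 0.639 FPKM within 10 kb (4237 loci) and 0.598 FPKM beyond 100 kb (914 loci). All 3 classes passed the same test status, which loci low in SNE can have met mainly through CPE. The likeness in CPE is therefore not independent of the choice. Soluble levels differed more, with medians of 0.0518, 0.0886 and 0.0347 FPKM in the same order. The median log2 ratio in the authors' deposited table was 3.59 at 10 to 100 kb, 2.67 within 10 kb and 4.06 beyond 100 kb. This order held in each of the 6 length classes. In the shortest class the medians were 3.39, 2.70 and 4.05, and in the class of 2001 to 5000 bases 3.65, 2.74 and 4.03. No test across replicates was possible for these differences.

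The share of calls did not follow the ratio across these classes. Calls higher in CPE made up 49.8% of the loci at 10 to 100 kb, 48.9% of those within 10 kb and 49.9% of those beyond 100 kb. Among loci above 0 in both fractions, over which the ratio was taken, the shares were 46.9%, 45.8% and 43.2%. Calls higher in SNE numbered 4, 62 and 0. Within the range of 10 to 100 kb the median log2 ratio in the authors' deposited table was 3.29 at 10 to 20 kb, 3.50 at 20 to 30 kb, 3.75 at 30 to 50 kb and 3.74 at 50 to 100 kb, with 580, 315, 382 and 559 loci. Median soluble levels in these 4 classes were 0.0624, 0.0566, 0.0444 and 0.0458 FPKM, and median chromatin levels lay between 0.606 and 0.639 FPKM.

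**Figure D3:**
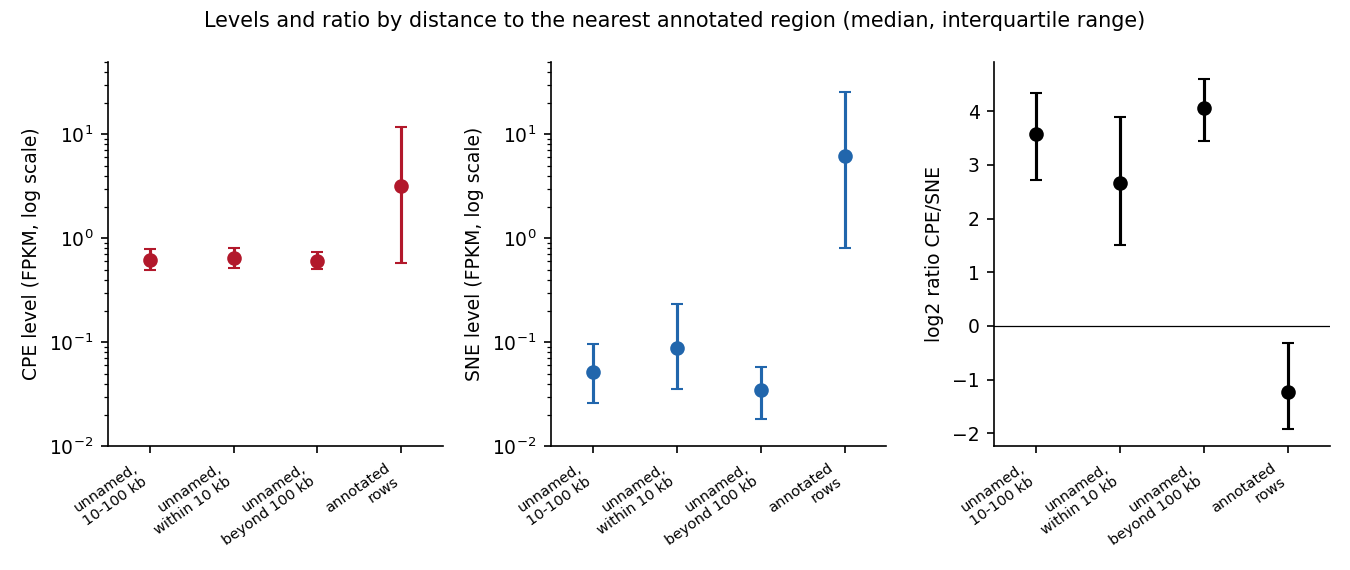
Median and interquartile range of the level in CPE (left, FPKM, log axis), the level in SNE (middle, FPKM, log axis) and the log2 ratio of CPE over SNE (right) for the 1836 unnamed loci at 10 to 100 kb, unnamed loci within 10 kb (4237) and beyond 100 kb (914), and 18271 tested annotated rows. The unnamed classes, which all passed the same test status, share a chromatin level near 0.6 FPKM. Their soluble medians are 0.0518, 0.0886 and 0.0347 FPKM.

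At the edge of the distance rule, the nearest locus inside it (CLOC_008181, 10005 bases from its neighbour) had 0.921 FPKM in CPE and 0.232 FPKM in SNE. The nearest locus outside it (CLOC_022797, 10000 bases away) had 0.564 FPKM in CPE and 0.0456 FPKM in SNE. Annotated regions without a test were not used to measure distance. Of the 1836 loci, 390 (21.2%) lay within 10 kb of such a region and 96 within 1 kb, though none overlapped one.

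The loci were not scattered singly. They fell into 452 intergenic intervals, each bounded by tested annotated regions, of which 172 held 1 locus and 47 held 10 or more. These 47 intervals held 781 loci, or 42.5% of the total. At least 1 locus was called higher in CPE in 311 intervals (68.8%). In 437 of the 452 intervals every locus had a positive ratio. With 15 negative ratios in all, this is the smallest number possible, so it adds nothing to that count. Of 1807 regions, 994 (55.0%) lay within 1 kb of another, forming 368 runs of up to 10 regions, a distance chosen after the data were seen. Loci in 1 run may be pieces of 1 transcript, so counts of loci are not counts of independent transcripts. Chromosome 13 held 129 loci (7.03%), in 25 intervals, against 1.99% of tested annotated rows. Chromosome 19 held 6 loci (0.327%), in 3 intervals, against 6.13%. The distance rule depends on how densely tested annotated regions lie, so these shares are not independent of the choice.

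The longest run with gaps of at most 1 kb, 4 loci over 56.65 kb, lay beyond TRMT11, which encodes a subunit of a transfer RNA guanosine methyltransferase. A run of 3 loci over 30.9 kb ended 2114 bases before it, and the 2 are described together as 1 run. The 7 loci were followed and interrupted by 6 further unnamed loci that were shorter or within 10 kb of the next annotated region. CLOC_144697 (chromosome 6, 126379385 to 126385278) began 19.0 kb past the end of the TRMT11 region and had 6.72 FPKM in CPE and 0.570 FPKM in SNE. The next 2 loci, CLOC_144698 (126385396 to 126403430) and CLOC_144699 (126403493 to 126410280), had 8.13 and 7.14 FPKM in CPE and 0.608 and 0.401 FPKM in SNE. Chromatin levels thus stayed between 6.72 and 8.13 FPKM along the first 30.9 kb of the run.

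Farther out, CLOC_144700 (126412395 to 126418962) and CLOC_144701 (126419069 to 126426785) had 5.41 and 5.37 FPKM in CPE, against 0.339 and 0.411 FPKM in SNE. CLOC_144703, of 33.8 kb (126427423 to 126461257), had the highest level of the run, 8.94 FPKM in CPE and 0.661 FPKM in SNE. CLOC_144704 (126461312 to 126469044), 101 kb past TRMT11, had 2.84 FPKM in CPE and 0.180 FPKM in SNE. The chromatin level was therefore lowest in the last of the 7 loci. The 6 shorter or nearer pieces had between 1.18 and 6.65 FPKM in CPE, and 4 of them were called higher in CPE.

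All 7 loci were called higher in CPE at q = 0.000706 in the authors' deposited table, with log2 ratios between 3.56 and 4.16. TRMT11 itself had 183.6 FPKM in CPE and 81.3 FPKM in SNE, a log2 ratio of 1.17 (q = 0.000706 in the authors' deposited table). It was thus higher in CPE as well, which 2.56% of tested annotated regions were (by the row of highest mean FPKM in each). The run lies beyond the 3′ end of TRMT11. It ends before RP11-527F13.1, a clone-named transcript with 5.06 FPKM in CPE and 0.477 FPKM in SNE and no call (the authors' deposited table gives q = 0.110). Whether the pieces are parts of 1 RNA could not be determined from the table.

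**Figure D4:**
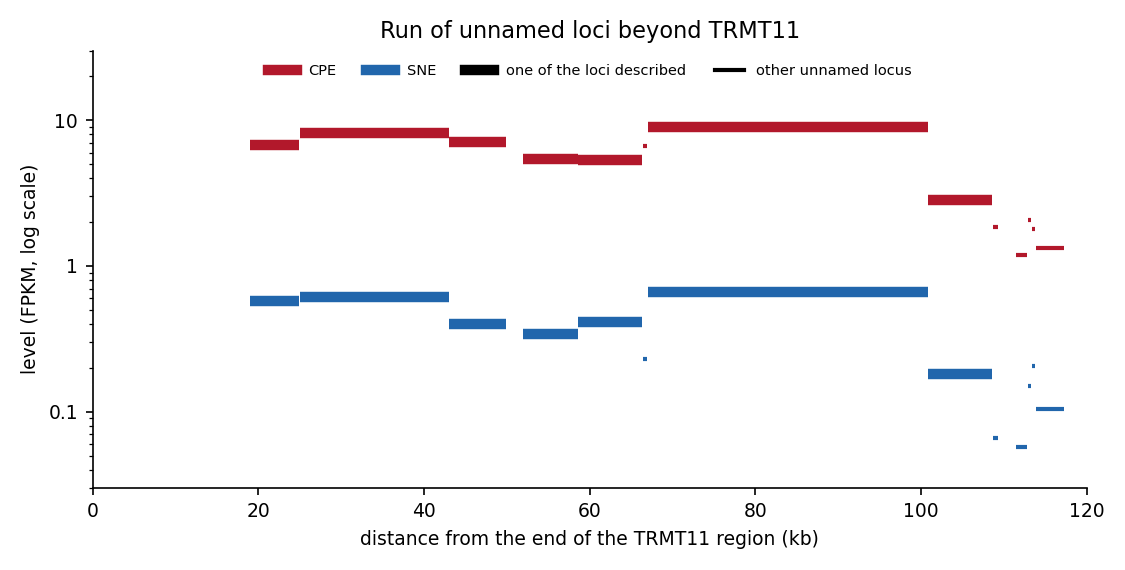
Level in CPE (red) and SNE (blue), in FPKM on a log axis, of each unnamed locus between the TRMT11 region and the next tested annotated region, drawn over its length, with distance from the end of the TRMT11 region in kb on the horizontal axis. Thick bars are the 7 loci at 10 to 100 kb, with 2.84 to 8.94 FPKM in CPE and 0.180 to 0.661 FPKM in SNE, and thin bars are the 6 other unnamed loci.

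Other arrays had lower levels. Around OR7H2P, an olfactory receptor pseudogene on chromosome 5, 21 of 24 loci were called higher in CPE, the most for any neighbouring region. All 24 loci lay between 0.509 and 2.54 FPKM in CPE, with a median of 1.45 FPKM against 0.0794 FPKM in SNE. OR7H2P had 2.38 FPKM in CPE and 0.0965 FPKM in SNE without a call (the authors' deposited table gives q = 0.493). On chromosome 12, 27 loci lay between SOX5, a transcription factor gene of the SOX family, and RP11-444D3.1. The 27 loci had between 0.406 and 1.06 FPKM in CPE, and 18 of them were called higher in CPE and none higher in SNE. SOX5 had 7.19 FPKM in CPE and 7.95 FPKM in SNE without a call (the authors' deposited table gives q = 0.756).

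Between SAMD5 and SASH1 on chromosome 6, 18 of 27 loci were called higher in CPE, with a median of 0.828 FPKM in CPE and 0.0517 FPKM in SNE. Between LYPLAL1 and ZC3H11B on chromosome 1, 16 of 25 were called, with a median of 0.655 FPKM in CPE and 0.0458 FPKM in SNE. LYPLAL1, a lysophospholipase-like gene, had 15.6 FPKM in CPE and 38.1 FPKM in SNE without a call (the authors' deposited table gives q = 0.234). Between RANP6 and RP11-161D15.1 on chromosome 4, 16 of 24 were called, with a median of 0.549 FPKM in CPE and 0.0360 FPKM in SNE. Median log2 ratios in these 3 arrays lay between 3.64 and 3.95 in the authors' deposited table. The interval with the most loci, 33 between AC118345.2 and AC092669.3 on chromosome 2, had 15 called.

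Some rows shared a region. The longest regions with a call belonged to 16 rows listed under 1 region of 77.7 kb (chromosome 16, 72324993 to 72402713), between DHX38, a splicing helicase gene, and AC004158.2. They had between 0.413 and 3.23 FPKM in CPE, and 3 were called higher in CPE. CLOC_063258 was the most abundant of the called rows, with 3.23 FPKM in CPE and 0.637 FPKM in SNE, and CLOC_063260 and CLOC_063265 had 0.445 and 0.676 FPKM in CPE. In all, 13 regions were shared by several of the loci. The position of each row inside a shared region is not in the table.

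Apart from the run beyond TRMT11, many of the most abundant loci were short and had small ratios. Of the 20 loci of highest mean FPKM, a set chosen after the values were seen, 11 were under 700 bases and 10 had a log2 ratio below 2 in the authors' deposited table. Short regions were common among all 1836 loci too, with a median length of 875 bases and a lower quartile of 626 bases. The lower quartile of the log2 ratio was 2.73 over loci above 0 in both fractions. CLOC_101461 (chromosome 21, 18826591 to 18827153, 563 bases) had the highest chromatin level, 21.4 FPKM in CPE against 11.3 FPKM in SNE, a log2 ratio of 0.92 (q = 0.000706 in the authors' deposited table). CLOC_148103 (chromosome 6, 28510391 to 28510913) had 14.4 FPKM in CPE and 4.12 FPKM in SNE, a log2 ratio of 1.80 (q = 0.000706 in the authors' deposited table). CLOC_140429 (chromosome 5, 180600641 to 180601148) had 8.23 FPKM in CPE and 4.26 FPKM in SNE. It shares its region with a second row, which had 2.13 FPKM in CPE and 0.663 FPKM in SNE without a call.

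CLOC_025843 (chromosome 11, 59323688 to 59324227), between DTX4 and OSBP, had 7.28 FPKM in CPE and 3.72 FPKM in SNE. These loci rose 1.89-fold to 3.49-fold in CPE, less than the median of 12.0-fold. CLOC_141567 (chromosome 6, 26521351 to 26522003), with 12.1 FPKM in CPE and 4.76 FPKM in SNE, had the highest level among loci without a call (the authors' deposited table gives q = 0.0935). A second row of the same region, also without a call, had 0.740 FPKM in CPE and 0.104 FPKM in SNE. Next among those not called was CLOC_135236 (chromosome 5, 158843563 to 158851178), a longer locus with 5.77 FPKM in CPE and 0.542 FPKM in SNE (q = 0.170 in the authors' deposited table).

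Only 18 loci had at least 1 FPKM in both fractions, of which 9 were called for CPE, 1 for SNE and 8 had no call. Their median log2 ratio was 0.89 in the authors' deposited table, and 16 of them were under 1000 bases long. A minimum level in SNE keeps loci with small ratios by construction. Besides CLOC_148103, the largest called ratios among them belonged to CLOC_164188 (chromosome 7, 149387809 to 149388490), CLOC_081470 (chromosome 2, 43037699 to 43038222), CLOC_099512 (chromosome 20, 21479899 to 21480408) and CLOC_158520 (chromosome 7, 149332774 to 149333284). CLOC_164188 had 4.99 FPKM in CPE and 1.53 FPKM in SNE, and CLOC_081470 had 3.76 and 1.43 FPKM in the same fractions. CLOC_099512, 11.2 kb beyond the 3′ end of the homeobox gene NKX2-2, had 3.53 FPKM in CPE and 1.53 FPKM in SNE. CLOC_158520 had 1.99 FPKM in CPE and 1.02 FPKM in SNE (q = 0.0349 in the authors' deposited table).

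Genes for transfer RNAs, short RNAs made by RNA polymerase III, lie between the same flanking genes as several of these loci. Their distance from the loci was not measured. RefSeq (GRCh38.p14) was used for the order of genes only, since its build differs from hg19. The genes between the same flanking genes could be read for 1048 of the 1836 loci. A transfer RNA gene lay among them for 28 loci (2.67%), in 14 of 282 intervals. Among the 20 loci of highest mean FPKM the order could be read for 9 and a transfer RNA gene lay between the flanks for 7.

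The interval of CLOC_164188 and CLOC_158520, between ZNF767 and KRBA1, holds 5 genes in RefSeq, all 5 of them for transfer RNAs. The interval of CLOC_148103, between COX11P1 and SCAND3, holds 5 transfer RNA genes among 13 genes, that of CLOC_025843 8 among 29, that of CLOC_141567 4 among 14, and that of CLOC_101461 1 among 11. The 28 loci had a median log2 ratio of 2.04 in the authors' deposited table, against 3.56 for the 1020 loci whose flanks enclose no transfer RNA gene. Their median lengths were 706 and 860 bases. Whether a locus overlaps a transfer RNA gene was not tested.

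The 4 loci called higher in SNE were all short, between 505 and 725 bases. CLOC_089100 (chromosome 2, 20729233 to 20729737) had 3.49 FPKM in CPE and 17.8 FPKM in SNE, a log2 ratio of -2.35 (q = 0.000706 in the authors' deposited table). It lies between RHOB, a small GTPase gene, and HS1BP3, which is 30.5 kb away and had 3.72 FPKM in CPE and 13.0 FPKM in SNE. CLOC_101358 (chromosome 21, 46975639 to 46976363), 10.6 kb from the folate carrier gene SLC19A1, had 0.958 FPKM in CPE and 2.05 FPKM in SNE. Of the 4, CLOC_089100 was the only locus with at least 1 FPKM in both fractions.

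CLOC_178820 (chromosome 9, 90681090 to 90681696), nearest to the ribosomal protein pseudogene RPS10P3, had 0.583 FPKM in CPE and 1.85 FPKM in SNE. CLOC_130517 (chromosome 5, 1830138 to 1830647), 13.3 kb from MRPL36, a mitochondrial ribosomal protein gene, had 0.683 FPKM in CPE and 1.46 FPKM in SNE (q = 0.0393 in the authors' deposited table). HS1BP3, SLC19A1 and MRPL36 were themselves called higher in SNE, as were 52.1% of tested annotated regions.

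At the other end, 103 called loci were listed at 0 in SNE, where a failed estimate and a true absence cannot be told apart. The most abundant were CLOC_110481 (chromosome 3, 143783859 to 143784369), CLOC_011465 (chromosome 1, 86089842 to 86090401) and CLOC_183421 (chromosome X, 133577317 to 133577839), with 1.10, 1.05 and 0.961 FPKM in CPE. Each lay beyond the 3′ end of its nearest gene. For CLOC_110481 this was C3orf58, for CLOC_011465 ZNHIT6, a factor of small nucleolar RNP assembly, and for CLOC_183421 PHF6, a chromatin-associated zinc finger gene. C3orf58, ZNHIT6 and PHF6 were all called higher in SNE, with 4.23, 3.25 and 8.77 FPKM in CPE against 15.8, 12.4 and 16.3 FPKM in SNE.

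The neighbouring genes were of ordinary abundance. The mean of the CPE and SNE levels, taken for the most abundant row of the nearest region, had a median of 5.29 FPKM over the 915 loci called higher in CPE (interquartile range 1.14 to 19.9) and 5.00 FPKM over the 917 loci not called (1.11 to 18.2). With each of the 508 neighbouring regions counted once, the median was 7.96 FPKM, against 8.31 FPKM over all 11934 tested annotated regions. Regions next to unnamed loci within 10 kb had a median of 14.3 FPKM (2695 regions) and those next to loci beyond 100 kb 7.59 FPKM (92 regions). Among the 508 neighbours 36 (7.09%) were called higher in CPE and 195 (38.4%) higher in SNE, against 2.56% and 52.1% of all tested annotated regions. Of the 915 loci called higher in CPE, 102 (11.1%) adjoined a region that was itself called higher in CPE, as did 105 (11.5%) of the 917 loci not called.

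The side of the gene on which a locus lies was read from the strand in GENCODE 29, for loci whose nearest region held a single row for a protein-coding gene. This gave a side to 606 of the 1836 loci (33.0%), too few for a statement on all of them. Of these 416 (68.6%) lay beyond the 3′ end and 190 before the 5′ end. Counted by gene, 115 genes had such loci beyond their 3′ end and 78 before their 5′ end. The share beyond the 3′ end was 58.2% at 10 to 20 kb, 67.0% at 20 to 30 kb, 75.5% at 30 to 50 kb and 78.7% at 50 to 100 kb. Many loci share a gene, and counted by gene the shares were 58.2%, 64.4%, 66.7% and 75.6%.

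The median log2 ratio in the authors' deposited table was 3.54 beyond the 3′ end and 3.35 before the 5′ end. Among unnamed loci within 10 kb of a gene, 65.0% of 2062 lay beyond the 3′ end, and the corresponding medians were 3.25 and 1.80. Among those beyond 100 kb, 85.9% of 333 lay beyond the 3′ end, or 71.4% counted by gene. Among the loci called higher in CPE 66.6% lay beyond the 3′ end, against 70.8% of those not called. The strand of the unnamed RNA is not in the table, so its direction relative to the gene is unknown.

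**Figure D5:**
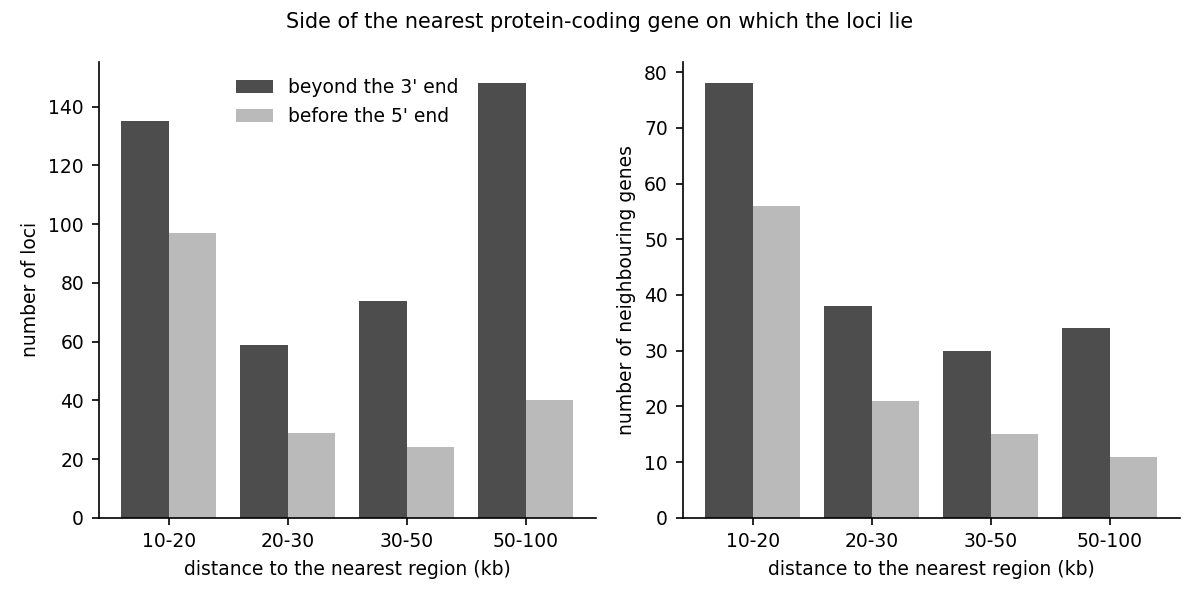
Number of loci (left) and of neighbouring protein-coding genes (right) by the side of the gene on which the loci lie, in 4 classes of distance in kb, over 606 loci. Dark bars stand for loci beyond the 3′ end and light bars for loci before the 5′ end. In the class of 50 to 100 kb the numbers are 148 and 40 loci, at 34 and 11 genes.

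Groups of neighbours were listed by symbol. For comparison, 4.26% of all tested annotated regions were neighbours of the loci, and 49.8% of all loci were called higher in CPE and 0.218% higher in SNE. Long intergenic RNA genes (LINC symbols) made up 12 of the neighbouring regions, or 13.8% of the 87 tested regions of that kind. They adjoined 90 loci, of which 48 (53.3%) were called higher in CPE and none higher in SNE. LINC00648 had 23 of them, which lay between 0.317 and 0.823 FPKM in CPE and of which 13 were called, while LINC00648 itself had 1.39 FPKM in CPE and 2.23 FPKM in SNE and was not called. LINC00355, named for its number of loci, adjoined 28, of which 14 were called. It was itself called higher in CPE, with 2.49 FPKM in CPE and 0.680 FPKM in SNE (q = 0.0125 in the authors' deposited table). LINC00444 (5 of 10 loci called), the region of LINC00630 (7 of 8) and that of LINC00618 and VRK1 (4 of 11) were not called themselves.

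Small RNA genes formed 15 neighbouring regions of 487 tested (3.08%), adjoining 74 loci, 40 of them (54.1%) called higher in CPE. SNORA63 and SNORA11B, guide RNAs for pseudouridylation, had 203.8 and 60.5 FPKM in CPE against 27.9 and 7.10 FPKM in SNE, without a call (the authors' deposited table gives q = 0.493 and q = 0.524). The single locus near SNORA63 had 0.987 FPKM in CPE and 0.137 FPKM in SNE. All 5 loci near NRF1, the nuclear respiratory factor gene, which shares its region with a 5S RNA pseudogene, were called, at 0.930 to 1.26 FPKM in CPE and 0.132 to 0.220 FPKM in SNE. The locus near CCAR1 and SNORD98 was called too.

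Zinc finger genes formed 11 of 315 tested regions (3.49%), adjoining 20 loci, 13 of them (65.0%) called higher in CPE and none higher in SNE. The 20 loci had a median log2 ratio of 2.55 in the authors' deposited table. ZNF337 had 4 called loci of 6, the region of ZNF131 and NIM1 had 2 of 2, ZNF92 had 1 of 2 and the region of ZNF254 had 1 of 1. Of these ZNF92 was itself called, higher in SNE, with 5.48 FPKM in CPE and 11.6 FPKM in SNE (q = 0.00567 in the authors' deposited table).

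Embryonic and kidney transcription factors and regulators formed 5 of 52 tested regions (9.62%), adjoining 14 loci of which 5 (35.7%) were called higher in CPE. LIN28B, higher in SNE, had 2 loci before its 5′ end, both called. CLOC_143644, 12.5 kb away, had 1.10 FPKM in CPE and 0.137 FPKM in SNE, and CLOC_143643, 13.2 kb away, had 1.16 FPKM in CPE and 0.284 FPKM in SNE. Before the 5′ end of MSX1, a homeobox gene higher in SNE, 1 of 3 loci was called, CLOC_119974, with 0.619 FPKM in CPE and 0.248 FPKM in SNE (q = 0.0288 in the authors' deposited table).

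Immediate early genes formed 2 of 21 tested regions (9.52%), adjoining 3 loci of which 2 (66.7%) were called, against 49.8% of all loci. Both lay before the 5′ end of ZFP36L1, an mRNA decay factor. CLOC_051362, 16.4 kb away, had 1.30 FPKM in CPE and 0.206 FPKM in SNE, and CLOC_051361, 15 kb away, had 0.491 FPKM in CPE and 0.0583 FPKM in SNE. ZFP36L1 itself was higher in SNE, with 2.94 FPKM in CPE and 6.45 FPKM in SNE (q = 0.0155 in the authors' deposited table). At LIN28B, MSX1 and ZFP36L1 the called loci and the gene thus had opposite directions. This was not particular to them. Of the 915 loci called higher in CPE, 243 (26.6%) adjoined a region called higher in SNE, as did 258 (28.1%) of the 917 not called.

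Of the 3 called loci nearest to an annotated region, CLOC_144704, the last locus of the run beyond TRMT11, had the highest level, 2.84 FPKM in CPE against 0.180 FPKM in SNE. CLOC_008181, beyond the 3′ end of EXO1, an exonuclease gene of DNA repair, and CLOC_049419, 10.1 kb from the region of VRK1, had 0.921 and 0.550 FPKM in CPE against 0.232 and 0.0391 FPKM in SNE. The farthest were CLOC_007097, 99.5 kb beyond LYPLAL1, CLOC_133291, 99.3 kb from RNU1-140P, and CLOC_041364, 99.0 kb from CYP51P2, with 0.524, 1.02 and 0.511 FPKM in CPE. In SNE they had 0.0610 and 0.0478 FPKM, and CLOC_041364 was listed at 0.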

How the data were processed

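RNA was measured by stranded total RNA sequencing of nuclear fractions of HEK293 cells. Per the submitters' processing notes the authors used TopHat2, a read aligner, and Cuffdiff, an expression test, with hg19. Versions, options, annotation and library scaling are not given in the sources used here. Per the file headers the deposited gene table holds FPKM for CPE and SNE, each made by the authors over the replicates, their log2 ratio of CPE over SNE, and a p-value with its q-value per row. A deposited isoform table (255974 rows) was not used. The deposited ratio matched the ratio of the FPKM values within 0.01 at all loci above 0 in both fractions.

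Starts are printed counted from 1. Distance was the gap between regions, checked on simulated regions. A neighbour was the row of highest mean FPKM in the nearest region. Medians were computed with pandas 2.3.3. No test was run beyond the authors' own. Named loci were the most abundant, those with the largest and smallest ratios, the longest, the nearest and the farthest of the called loci, and the most abundant not called. Named genes were their neighbours, the neighbours with most called loci and up to 4 neighbours of called loci from each symbol list, 1 of which is not reported here. The loci and lists were chosen with earlier results of these data known. Alternatives changed the q, ratio, level, length and distance minimum, the neighbour and the pseudocount.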

Additional observations from a re-analysis of the deposited data

How the results depend on the processing

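Of 32 alternatives, 18 left a value about where it was (counts within 1.5 times, medians within 0.1 on the log2 scale or 10% in FPKM) and none reversed a direction. The 915 loci higher in CPE became 133 with at least 1 FPKM in either fraction (189 loci), 606 at over 1000 bases (786 loci) and 609 at over 20 kb (1256 loci), which follows from the fewer loci kept, and 618 at a q of at most 0.01. The 4 loci higher in SNE became 0 at over 1000 bases and 2 at over 20 kb. The median log2 ratio of 3.59 became 2.22 and 0.60 with pseudocounts of 0.1 and 1, 0.89 with at least 1 FPKM in both fractions, 4.83 when centred on tested annotated rows (a shift of -1.24), 3.69 at over 1000 bases and 3.25 with 1 value per intergenic interval. The last alternative, like the removal of intervals with a transfer RNA gene (901 and 4 called, median 3.60), was chosen after seeing the data. The neighbours' median of 5.29 FPKM became 1.81 with the least abundant row of each region, 7.70 with each region once and 3.79 in CPE alone. No paired analysis was possible because the table has no values per sample, and no replicate could be left out. Depth is unknown, so the precision of levels near 0.05 FPKM in SNE could not be given.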
